A study of Mus musculus with 12 samples.

Results

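The genes described are the voltage-gated and potassium channel genes of the mouse: every protein-coding gene of the GENCODE M21 annotation whose symbol begins with Kcn, Hcn, Cacn or Scn and a digit, without Kcnj10. There were 137 of them among 54356 genes in the files, of which 21815 were protein-coding. Of the 137, 74 had 10 or more reads in at least 2 of the 12 libraries, 63 did not, and 9 of those 63 had no read in any library. Reads here are Salmon estimated counts summed over the transcripts of a gene.

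The libraries came from cultured astrocytes of C57BL/6 mice, taken from cortex or midbrain. The shPTB cultures received a short hairpin RNA against PTB, the RNA-binding protein encoded by Ptbp1, and were kept in neuronal differentiation medium for 2 weeks or 4 weeks. The mock cultures stayed in growth medium, and the labels give no time for them. The 6 groups (cortex shPTB at 2 and 4 weeks, cortex mock, midbrain shPTB at 2 and 4 weeks, midbrain mock) had 2 libraries each. The design asks what changes between astrocyte cultures and cultures treated to convert them. Whether the cells were converted was not tested here. The hairpin, the medium and the time in culture changed together, so their effects cannot be told apart. The labels do not say whether the 2 libraries of a group came from separate cultures, so p-values measure the spread between libraries, which may be technical.

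Ion channels of these families set the electrical behaviour of a cell. Two-pore and inward rectifier potassium channels hold the resting potential and dominate the conductance of mature astrocytes, whose own hallmark inward rectifier, Kcnj10, is outside the gene set. Voltage-gated sodium channels carry the action potential of neurons, voltage-gated potassium channels end it and set the firing rate, and voltage-gated calcium channels couple it to transmitter release and to gene expression. Pore-forming genes encode the conducting subunit, and auxiliary genes encode partners that place the pore at the membrane or change how it opens.

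Total reads per library lay between 6022098 and 11385761, and mitochondrial transcripts took 36.4 to 48.3% of the reads in shPTB libraries and 16.9 to 22.7% in mock libraries. Levels are given as CPM, the counts of a gene scaled to a common library size after adjusting each library's total with edgeR's TMM factor. These factors were 0.68 to 0.953 in shPTB libraries and 1.22 to 1.69 in mock libraries. A count of 0 in a library allows a level of up to 0.163 to 0.576 CPM, a limit that covers counting error only. Ptbp1 itself was at 73 and 73.5 CPM in cortex shPTB libraries at 2 weeks, at 89.2 and 90.5 CPM at 4 weeks and at 173 and 251 CPM in cortex mock libraries. Midbrain libraries held it at 105 and 90.8 CPM at 2 weeks, 169 and 155 CPM at 4 weeks and 208 and 250 CPM in mock, and the fall at 4 weeks did not pass the test (log2 fold change -0.50 ± 0.20 SE, adjusted p = 0.0744). Across all tested genes, the deviations of a library from its group mean correlated at 0.81 between the cortex mock and midbrain mock libraries of the same number, and at -0.02 to 0.05 between any other 2 groups. Astrocyte markers summed to 7810 to 15100 CPM in shPTB libraries and 11400 to 22300 CPM in mock libraries, with none of the 8 at 0. Of these 8, 2 rose and 2 fell in cortex at 2 weeks, and 2 rose and 4 fell at 4 weeks. In midbrain 0 rose and 2 fell at 2 weeks, and 1 rose and 4 fell at 4 weeks. Neuron markers summed to 49.1 to 91 CPM in shPTB and 113 to 186 CPM in mock, with Elavl4 at 0 reads in 3 of the 4 shPTB groups. Among the 7 neuron markers tested, 4 rose and 2 fell in cortex at 2 weeks, 1 rose and 2 fell in cortex at 4 weeks and in midbrain at 2 weeks, and 1 rose and 4 fell in midbrain at 4 weeks.

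Detection differed between the channel families. Genes of auxiliary subunits were detected more often than genes of pores: 13 of 16 calcium auxiliary genes, 9 of 13 Kv auxiliary genes and 3 of 4 sodium auxiliary genes had 10 reads in 2 libraries, against 6 of 10 calcium pore genes, 16 of 40 Kv pore genes and 4 of 10 sodium pore genes. These counts describe the files and were not tested. Of the other potassium families, 8 of 14 two-pore genes, 4 of 14 inward rectifier genes and 8 of 12 calcium- and sodium-activated genes were detected, as were 3 of 4 genes of the hyperpolarization-activated HCN channels. Several genes known for neuronal firing stayed below the limit. Scn1a, a main sodium channel of inhibitory neurons, had at most 3 reads in a library. Cacna1b, the pore of presynaptic N-type calcium channels, had at most 6, Cacna1g, a T-type calcium pore, at most 4, and Kcna1, an axonal potassium channel, at most 10. The number of members with 10 or more reads was 30 to 55 in shPTB libraries and 56 to 65 in mock libraries. Mock libraries were deeper, at 10197614 to 11385761 total reads against 6022098 to 9527843 in shPTB libraries, and shPTB libraries gave more of theirs to mitochondrial transcripts, so detection and depth cannot be told apart here.

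Between genes, levels were compared per length, as TPM averaged over the 2 libraries of a group. Kcnk1, a two-pore channel of weak inward rectification, led all 4 shPTB groups, with 75.8% of the summed channel TPM in cortex at 2 weeks, 88.7% in cortex at 4 weeks, 76.1% in midbrain at 2 weeks and 80.7% in midbrain at 4 weeks. In mock it held 27.5% in cortex and 22.7% in midbrain. Of the other genes described here, the highest per length were Cacnb1 and Cacng5 in cortex shPTB cultures, Cacnb1 and Kcnk3 in midbrain shPTB cultures, Cacnb3 and Kcnk2 in cortex mock and Cacnb3 and Kcnn4 in midbrain mock. Each of these held at most 7.25% of the channel TPM in any group. In CPM, the channel genes summed to 1300 to 1850 in shPTB libraries and 555 to 683 in mock libraries. Without Kcnk1 the sums were 675 and 677 CPM in cortex at 2 weeks, 536 and 538 CPM in cortex at 4 weeks and 481 and 592 CPM in cortex mock. In midbrain they were 658 and 674 CPM at 2 weeks, 872 and 931 CPM at 4 weeks and 516 and 568 CPM in mock. Cortex at 4 weeks overlapped its mock libraries, and the other shPTB groups lay above theirs in CPM. This order depends on the scaling. TPM is scaled to the library total. In TPM the channel genes summed to 275, 250 and 222 in cortex at 2 weeks, 4 weeks and mock. Kcnk1 made up 208, 222 and 61.1 of these sums. The midbrain sums were 294, 392 and 233 TPM, with Kcnk1 at 224, 316 and 52.9. Without Kcnk1, every shPTB group thus lay below its mock group in TPM.

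Of the 137 genes, 69 passed the filter on low counts and were tested with edgeR's quasi-likelihood test over all 14607 genes that passed. A gene could pass through its high group alone, so the counts below describe the tested members and not the whole set. Against mock, 19 members rose and 11 fell in cortex at 2 weeks (43.5% called, against 35% of all tested genes). At 4 weeks in cortex 12 rose and 20 fell (46.4%, against 39.4%). In midbrain 18 rose and 16 fell at 2 weeks (49.3%, against 30.6%), and 15 rose and 21 fell at 4 weeks (52.2%, against 39.2%). Of all tested genes, 17.5% rose and 17.6% fell in cortex at 2 weeks, and 18.5% rose and 20.9% fell at 4 weeks. In midbrain 15.9% rose and 14.7% fell at 2 weeks, and 18.7% rose and 20.4% fell at 4 weeks. The median log2 fold change of the members was 0.11, -0.63, 0.06 and -0.03 in that order of comparisons, beside -0.11, -0.12, -0.07 and -0.15 over all tested genes; with groups at 0 reads set to their bound, the second was -0.28. The split depends on the scaling: divided by total reads alone, the median of all genes moved to -0.85, -1.21, -0.74 and -1.01, and the members split into 14 higher and 23 lower, 6 and 38, 9 and 25, and 10 and 32. Leaving out either library of the shPTB group compared reduced the members called at 2 weeks in both regions. So did leaving out library 1 in cortex at 4 weeks. Calls over all tested genes fell too in these fits, which left 1 library in a group. The excess of members over all genes is therefore not shown to hold there.

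**Figure D1:**
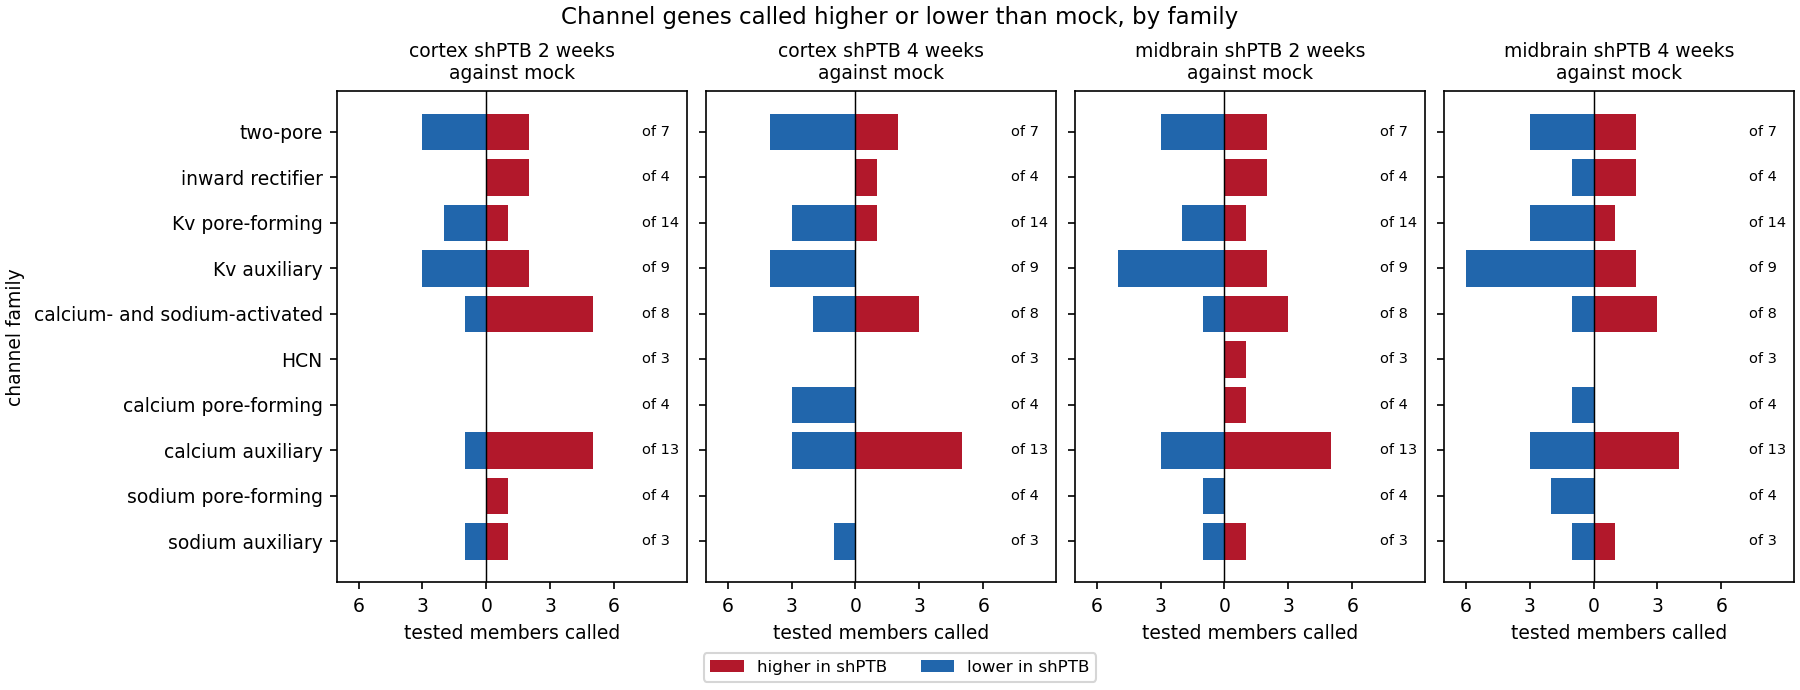
Number of tested channel genes called higher (red, to the right) or lower (blue, to the left) than mock at an adjusted p under 0.05, by family and comparison; the number at the right of each row is the number of members tested. Auxiliary calcium genes and calcium- and sodium-activated genes had up to 5 members called higher, and Kv auxiliary genes up to 6 called lower.

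The same 8 genes were called higher in all 4 comparisons with mock, 11.6% of the tested members against 9.12% of all tested genes: Cacna2d4, Cacnb1, Cacng5, Kcnj12, Kcnk1, Kcnk3, Kcnma1 and Kcnu1. Another 9 were called lower in all 4, 13% of the tested members against 9.34% of all tested genes: Cacng6, Kcnab2, Kcnd3, Kcne1, Kcne1l, Kcnk10, Kcnk6, Kcnn4 and Scn3b. The 2 times of a region share their mock libraries. Called in at least 1 of the 4 were 48 members (69.6% of those tested, against 56.7% of all tested genes), and 21 were called in none (30.4%, against 43.3%). Cacna1h and Kcnip1 were called in opposite directions in different comparisons. Across all 11 comparisons there were 172 calls, of which 78 held in every one of the 20 alternative analyses that gave a value; below, such calls are said to hold throughout, and a library named as left out is one without which the call was lost.

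**Figure D2:**
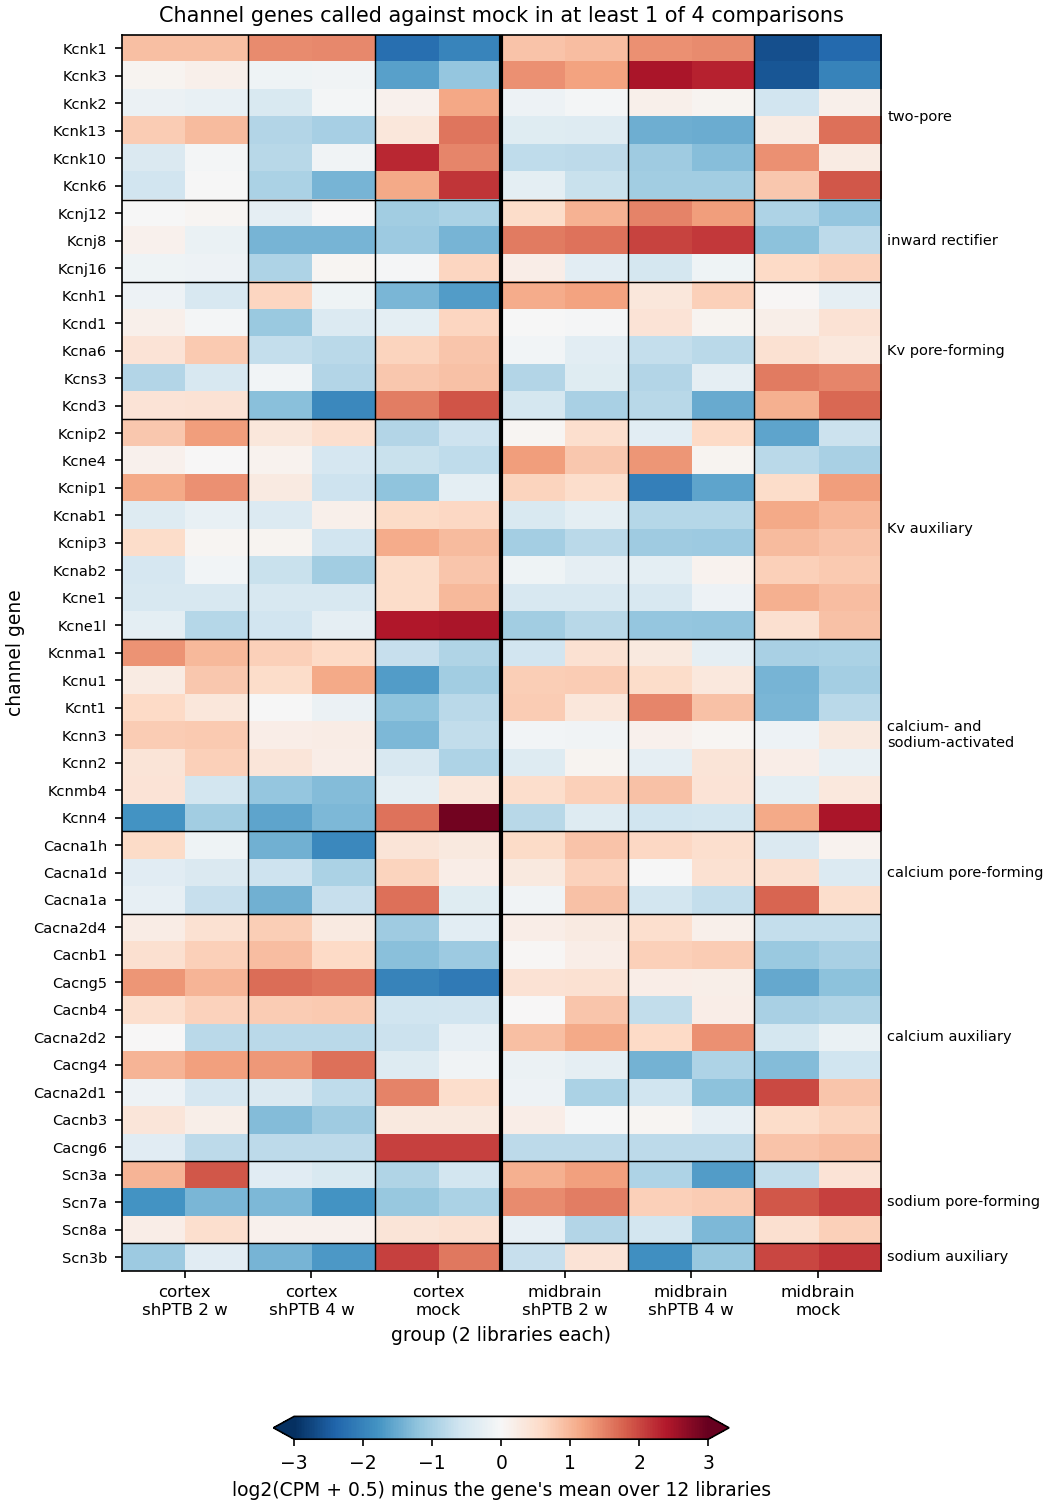
Levels of 45 channel genes called in at least 1 comparison with mock, as log2(CPM + 0.5) minus the gene's mean over the 12 libraries, ordered by family (rows) and library (columns; 2 libraries per group). Kcnk1 and Kcnk3 were higher in every shPTB library than in any mock library, and Kcne1l, Scn3b and Kcnn4 were lower.

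RefSeq promoter windows, 250 bases before to 50 bases after a start, were found by symbol for 100 of the 137 genes. The 250 bases before the start are printed for the genes called in the same direction in all 4 comparisons with mock whose RefSeq start lay within 30 bases of the start of their most used transcript, to show the regions that precede genes moving together. They are from build GRCm38.p6, written 5′ to 3′ on the gene's strand, with CG dinucleotides in capitals. The first 2 precede genes that rose and the last 2 genes that fell.
Cacnb1 (chr11:98022628-98022877, minus strand): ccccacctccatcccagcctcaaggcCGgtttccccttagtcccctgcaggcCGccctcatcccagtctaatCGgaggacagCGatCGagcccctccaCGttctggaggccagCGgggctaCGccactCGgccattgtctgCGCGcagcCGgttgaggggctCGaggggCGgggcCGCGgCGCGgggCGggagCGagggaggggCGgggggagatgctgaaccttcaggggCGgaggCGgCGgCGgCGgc
Cacng5 (chr11:107911363-107911612, minus strand): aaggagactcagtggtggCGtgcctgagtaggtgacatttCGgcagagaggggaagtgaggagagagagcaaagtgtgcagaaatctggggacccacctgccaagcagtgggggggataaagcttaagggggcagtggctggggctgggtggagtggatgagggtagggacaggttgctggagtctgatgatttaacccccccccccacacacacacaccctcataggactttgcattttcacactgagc
Kcnab2 (chr4:152477550-152477799, minus strand): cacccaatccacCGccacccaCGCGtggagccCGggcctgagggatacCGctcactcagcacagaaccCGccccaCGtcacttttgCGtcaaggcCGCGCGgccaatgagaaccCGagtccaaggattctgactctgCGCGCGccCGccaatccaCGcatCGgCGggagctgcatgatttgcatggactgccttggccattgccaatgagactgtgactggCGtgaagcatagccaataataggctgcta
Kcnn4 (chr7:24370013-24370262, plus strand): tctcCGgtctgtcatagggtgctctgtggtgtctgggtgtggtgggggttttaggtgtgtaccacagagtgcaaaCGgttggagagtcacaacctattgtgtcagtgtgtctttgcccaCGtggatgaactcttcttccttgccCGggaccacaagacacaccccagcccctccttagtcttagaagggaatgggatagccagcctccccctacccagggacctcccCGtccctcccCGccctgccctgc

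Within these 250 bases, CG occurs 26 times before Cacnb1 and 2 times before Cacng5, which rose, and 20 times before Kcnab2 and 6 times before Kcnn4, which fell, beside a median of 6 over all 32851 windows. Each pair held 1 region far above that median and 1 at or below it. Over whole windows, the median GC content was 59.3% for 7 windows of 5 always-higher genes, 59.7% for 9 windows of 6 always-lower genes, 58.1% for the 136 windows of all channel genes and 52.7% for all windows. Both parts of the RE1 motif of the neuronal repressor REST were searched on both strands, the left part with the letters TTCAGCACC. Neither the left nor the right part was in a window of the always-higher or always-lower genes. The left part was in 0.371% and the right part in 0.137% of all windows. The GC-box letters GGGCGG, on either strand, were in 3 of the 7 always-higher windows (42.9%), in 4 of the 9 always-lower windows (44.4%), in 45.6% of all channel windows and in 35.7% of all windows.

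Two-pore channels moved in both directions. Of the 7 tested, 2 rose in every comparison with mock (Kcnk1 and Kcnk3) and 3, 4, 3 and 3 fell in cortex at 2 and 4 weeks and in midbrain at 2 and 4 weeks. The rises made 28.6% of those tested each time, beside 17.5%, 18.5%, 15.9% and 18.7% of all tested genes. The falls made 42.9%, 57.1%, 42.9% and 42.9%, beside 17.6%, 20.9%, 14.7% and 20.4%. Kcnk1 (chr8:125995170-126030685, plus strand) was at 664 and 668 CPM in cortex shPTB libraries at 2 weeks, at 961 and 972 CPM at 4 weeks and at 74.2 and 90.4 CPM in cortex mock libraries. The midbrain levels were 645 and 679 CPM at 2 weeks, 921 and 961 CPM at 4 weeks and 57.0 and 70.6 CPM in mock. All 8 shPTB libraries stood far above all 4 mock libraries. The rise was 8.09-fold and 11.7-fold in cortex and 10.4-fold and 14.8-fold in midbrain at 2 and 4 weeks (log2 fold changes 3.02 ± 0.20, 3.55 ± 0.21, 3.38 ± 0.20 and 3.88 ± 0.21 SE), with adjusted p = 2.23e-06, 6.85e-07, 1.15e-06 and 4.17e-07, and all 4 calls held throughout. The size of each Kcnk1 rise depends on the scaling and was smaller in the mean TPM values given above. Whether more cells expressed the gene or each cell held more of its RNA cannot be told apart in bulk samples, here or in the results that follow.

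Kcnk3 (chr5:30588170-30625271, plus strand), an acid-sensitive background potassium channel, was at 17.8 and 18.5 CPM in cortex shPTB libraries at 2 weeks, at 15.2 and 15.4 CPM at 4 weeks and at 5.11 and 7.24 CPM in cortex mock. Cultures from midbrain had it at 44.1 and 39.5 CPM at 2 weeks, 94.1 and 85.4 CPM at 4 weeks and 2.39 and 3.79 CPM in mock. The groups did not overlap in either region, and the shPTB libraries of midbrain stood above those of cortex while the mock libraries stood below. It rose 2.95-fold and 2.49-fold in cortex and 13.6-fold and 29.1-fold in midbrain (adjusted p = 0.000601, 0.00152, 2.16e-06 and 4.23e-07). The cortex call at 4 weeks was lost when libraries were scaled to total reads, with a log2 fold change of 0.26.

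Kcnk10, a mechanically and heat-gated background channel, was at 1.12 and 1.62 CPM in cortex at 2 weeks, at 0.733 and 1.54 CPM at 4 weeks and at 9.99 and 5.57 CPM in mock. In midbrain it was at 0.792 and 0.772 CPM at 2 weeks, 0.553 and 0.402 CPM at 4 weeks and 5.15 and 2.12 CPM in mock, and it fell in all 4 comparisons by 2.21 to 2.91 on the log2 scale; the midbrain call at 2 weeks was lost without either midbrain shPTB library of that time or without mock library 1 (log2 fold changes from -2.70 to -1.43 over the libraries left out). Reads of Kcnk10 lay mostly on Kcnk10-201 in mock (68.8%) and on Kcnk10-202 in shPTB (71.5%). Kcnk13, a halothane-inhibited channel known from microglia, was at 5.05 and 5.84 CPM in cortex at 2 weeks, at 1.28 and 1.15 CPM at 4 weeks and at 3.66 and 9.47 CPM in mock. Midbrain libraries held it at 2.04 and 1.99 CPM at 2 weeks, 0.691 and 0.670 CPM at 4 weeks and 3.36 and 9.82 CPM in mock. It fell 9.49-fold in midbrain at 4 weeks (adjusted p = 0.00296, held throughout) and 5.29-fold in cortex at 4 weeks (adjusted p = 0.0118; lost without either cortex shPTB library of that time or mock library 2, log2 fold changes from -2.95 to -1.58). The 3.25-fold fall in midbrain at 2 weeks (adjusted p = 0.0363) was lost in 9 of 12 single-library omissions (log2 fold changes from -2.29 to -0.74). Kcnk6, a relative of Kcnk1 also known from microglia and macrophages, was at 0 to 0.811 CPM in the shPTB libraries and at 1.79 to 5.33 CPM in the mock libraries, with 7, 1, 8 and 2 reads over the shPTB groups and 108 and 100 reads over cortex and midbrain mock. It was 6.21-fold and 6.61-fold lower at 2 weeks in cortex and midbrain (adjusted p = 0.0138 and 0.0116), and at 4 weeks the ratios were 38.7 in cortex (95% counting interval 6.8 to 1540) and 21.6 in midbrain (5.83 to 181). Of the last 500 bases of its longest transcript, 6.8% of 31-base words also occur in other genes, so its count is uncertain. The calls for Kcnk6 at 2 weeks were lost without either shPTB library of the group or without mock library 2 (log2 fold changes from -3.32 to -1.96). Microglia markers fell beside these 2 genes: 7 of the 8 were called lower in every comparison with mock, and the list summed to 14.6 to 69.8 CPM in shPTB libraries and 543 to 705 CPM in mock libraries, with none at 0 reads in a group. Their part in these falls was not tested.

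Kcnk2, a mechanically gated background channel found in astrocytes, came second among two-pore genes per length in mock. It lay between 24.2 and 31.9 CPM in cortex shPTB libraries and at 36.4 and 74.6 CPM in cortex mock, and between 29.6 and 37.0 CPM in midbrain shPTB and at 22.0 and 37.0 CPM in midbrain mock. Its falls in cortex (log2 fold changes -0.94 ± 0.33 and -0.98 ± 0.33 SE, adjusted p = 0.0453 and 0.0348) were each lost in 9 of 12 single-library omissions and reached -0.34 and -0.38 without mock library 2.

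**Figure D3:**
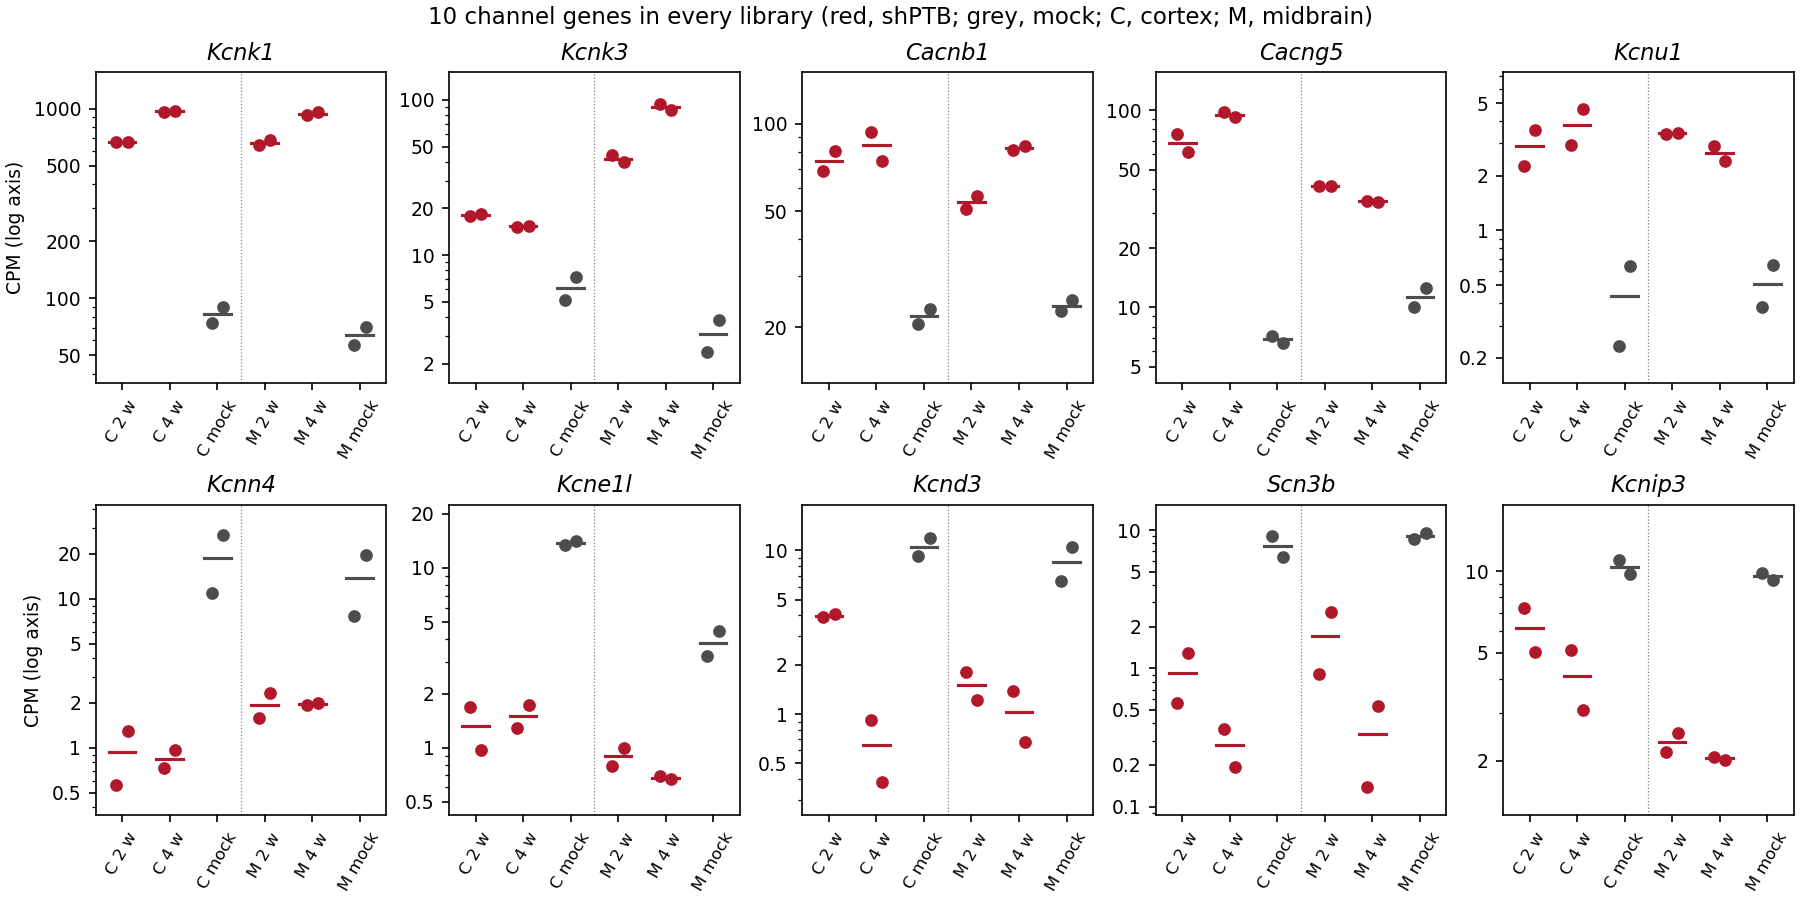
CPM of 10 channel genes in every library on log axes (points, libraries; lines, means of the 2 libraries; red, shPTB; grey, mock; C, cortex; M, midbrain). Kcnk1, Kcnk3, Cacnb1, Cacng5 and Kcnu1 were above mock in every shPTB library, and Kcnn4, Kcne1l, Kcnd3, Scn3b and Kcnip3 were below it.

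Inward rectifiers were few, with 4 of 14 members tested, and 7 of their 8 calls against mock were rises. Called higher were 50% and 25% of those tested in cortex at 2 and 4 weeks, and 50% at both times in midbrain. Of all tested genes, 17.5%, 18.5%, 15.9% and 18.7% were called higher in that order. The share called lower was 0% except in midbrain at 4 weeks, at 25% beside 20.4% of all tested genes. Kcnj8, the pore of a vascular ATP-sensitive potassium channel and a gene known from pericytes, was at 3.39 and 3.53 CPM in midbrain shPTB libraries at 2 weeks, at 4.84 and 5.22 CPM at 4 weeks and at 0.0542 and 0.257 CPM in midbrain mock. In cortex it was at 0.936 and 0.649 CPM at 2 weeks, at 0 reads in both libraries at 4 weeks and at 0.116 and 0 CPM in mock. The rise was 21.5-fold and 31.2-fold in midbrain (adjusted p = 0.000717 and 0.000273, held throughout). In cortex at 2 weeks 9 reads stood against 2 in mock, a ratio of 11.6 with a 95% counting interval of 2.41 to 111 (adjusted p = 0.0183; lost without either shPTB library of that group). Fibroblast and mural markers moved the other way as a sum, at 191 to 244 CPM in midbrain shPTB libraries and 1730 to 1880 CPM in midbrain mock, although 3 of the 8 were called higher there; their part in the rise of Kcnj8 was not tested. Kcnj12, a strong inward rectifier, was at 0.749 and 0.811 CPM, 0.549 and 0.769 CPM and 0.116 and 0.159 CPM in cortex at 2 weeks, 4 weeks and mock. The corresponding midbrain levels were 1.36 and 2.10 CPM at 2 weeks, 3.04 and 2.54 CPM at 4 weeks and 0.163 and 0.0642 CPM in mock. Its midbrain rises of 13.5-fold and 21.7-fold held throughout, while those in cortex (5.38-fold and 4.53-fold) were lost under DESeq2, without a count filter and under scaling to total reads, and in 3 and 7 of 12 single-library omissions (log2 fold changes from 1.93 to 2.62). Kcnj16, which pairs with Kcnj10 in astrocytes, was at 5.80 and 5.68 CPM, 3.11 and 6.73 CPM and 6.27 and 10.3 CPM in cortex at 2 weeks, 4 weeks and mock. The corresponding midbrain levels were 7.47 and 5.08 CPM at 2 weeks, 4.28 and 5.76 CPM at 4 weeks and 10 and 10.7 CPM in mock, and only the fall in midbrain at 4 weeks was called (log2 fold change -1.04 ± 0.36 SE, adjusted p = 0.039; lost in 7 of 12 single-library omissions, from -1.28 to -0.84).

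Of the 14 Kv pore genes tested, 3, 4, 3 and 4 were called in cortex at 2 and 4 weeks and in midbrain at 2 and 4 weeks. That is 21.4%, 28.6%, 21.4% and 28.6%, beside 35%, 39.4%, 30.6% and 39.2% of all tested genes. Kcnd3 (chr3:105452330-105674002, plus strand), a pore of rapidly inactivating A-type currents, fell in all 4. It was at 3.93 and 4.06 CPM in cortex shPTB libraries at 2 weeks, at 0.916 and 0.384 CPM at 4 weeks and at 9.18 and 11.9 CPM in cortex mock. The midbrain levels were 1.81 and 1.21 CPM at 2 weeks, 1.38 and 0.670 CPM at 4 weeks and 6.51 and 10.5 CPM in mock. Every shPTB library lay below every mock library of its region, and the falls were 2.62-fold and 15.7-fold in cortex and 5.59-fold and 8.23-fold in midbrain (adjusted p = 0.0128, 9.72e-05, 0.000778 and 0.000291). The first was lost without either cortex shPTB library of 2 weeks (log2 fold changes from -1.58 to -1.20). Of its reads, 61.1% in shPTB and 53.3% in mock were assigned to a transcript annotated as a retained intron.

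Kcna6, a delayed rectifier subunit, was at 6.93 and 9.09 CPM in cortex at 2 weeks, at 2.93 and 2.69 CPM at 4 weeks and at 8.42 and 9.47 CPM in mock. In midbrain the levels were 4.75 and 3.97 CPM at 2 weeks, 2.90 and 2.68 CPM at 4 weeks and 7.11 and 6.42 CPM in mock. Its falls at 4 weeks (3.17-fold in cortex and 2.42-fold in midbrain, adjusted p = 0.000561 and 0.00256) held throughout, and 85.7% of its reads in shPTB and 69.9% in mock lay on a transcript annotated as non-coding. Kcnh1, a voltage-gated potassium channel pore, rose in cortex, where mock had 2 reads over the group. At 2 weeks 9 reads gave a ratio of 11.6 (95% counting interval 2.41 to 111, adjusted p = 0.0129). That call was lost without cortex shPTB library 1 of that time. At 4 weeks Kcnh1 had 16 reads, a ratio of 22.3 (5.25 to 200, adjusted p = 0.00168). In midbrain it was 3.07-fold higher at 2 weeks (adjusted p = 0.032), a call lost without either shPTB library of that group, without either midbrain mock library, under DESeq2 and under scaling to total reads. Kcns3, a silent subunit that conducts only in company of other pores, had 1, 4, 2 and 2 reads over the shPTB groups and 34 and 73 reads over cortex and midbrain mock; it was called lower in all but cortex at 4 weeks. Its call in cortex at 2 weeks was lost in 6 of 12 single-library omissions, and each midbrain call was lost without library 1 of its shPTB group.

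Kcnc1, a pore of fast-spiking neurons, was called in no comparison. It was at 13.9 and 13.6 CPM in cortex at 2 weeks, at 14.7 and 13.3 CPM at 4 weeks and at 11.2 and 14.3 CPM in mock. In midbrain the levels were 10.7 and 10.8 CPM at 2 weeks, 9.67 and 8.44 CPM at 4 weeks and 9.82 and 12.6 CPM in mock. Libraries of shPTB and mock overlapped in every comparison except midbrain at 4 weeks. Kcna2, Kcnq3 and Kcnd2, other Kv genes of neurons, were also uncalled against mock. Kcna2 lay between 2.07 and 6.36 CPM over the 12 libraries, Kcnq3 between 0.449 and 2.68 CPM and Kcnd2 between 0.108 and 1.73 CPM.

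Of 9 Kv auxiliary genes tested, 3, 4, 5 and 6 fell and 2, 0, 2 and 2 rose in cortex at 2 and 4 weeks and in midbrain at 2 and 4 weeks. The falls made 33.3%, 44.4%, 55.6% and 66.7% of those tested, beside 17.6%, 20.9%, 14.7% and 20.4% of all tested genes called lower. The rises made 22.2%, 0%, 22.2% and 22.2%, beside 17.5%, 18.5%, 15.9% and 18.7% of all tested genes called higher. Kcne1l (chrX:142304752-142306294, minus strand), a small single-span subunit, was at 1.68 and 0.974 CPM in cortex shPTB libraries at 2 weeks, at 1.28 and 1.73 CPM at 4 weeks and at 13.5 and 14.1 CPM in cortex mock. Cultures from midbrain had it at 0.792 and 0.993 CPM at 2 weeks, 0.691 and 0.670 CPM at 4 weeks and 3.25 and 4.43 CPM in mock. The groups did not overlap, and the falls of 10.4-fold and 9.10-fold in cortex and 4.24-fold and 5.55-fold in midbrain held throughout (adjusted p = 3.33e-05, 3.54e-05, 0.00104 and 0.000459). Its relative Kcne1 had 0, 0, 0 and 1 reads over the shPTB groups and 20 and 31 reads over cortex and midbrain mock. That made it at least 2.58-fold, 2.39-fold and 5.44-fold lower where a group was at 0, with 3 reads over the group as the floor, and 13.4-fold lower in midbrain at 4 weeks (95% counting interval 2.23 to 546). All 4 calls for Kcne1 were lost under DESeq2 and in 8, 6, 3 and 9 of 12 single-library omissions.

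Kcnab2, a beta subunit of Kv channels, was at 9.92 and 13.5 CPM in cortex at 2 weeks, at 8.79 and 6.73 CPM at 4 weeks and at 21.3 and 25.7 CPM in mock. In midbrain the levels were 13.1 and 11.7 CPM at 2 weeks, 11.6 and 15.4 CPM at 4 weeks and 23.9 and 25.2 CPM in mock. No shPTB library reached a mock library, and the gene was 2.00-fold, 3.02-fold, 1.97-fold and 1.81-fold lower (adjusted p = 0.00667, 0.000433, 0.00727 and 0.0117). Outside cortex at 4 weeks each call was lost without 1 shPTB library of its group: library 1 of cortex at 2 weeks, library 2 of midbrain at 2 weeks and library 1 of midbrain at 4 weeks, with log2 fold changes from -1.25 to -0.67 over the omissions.

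The Kv channel-interacting proteins, calcium sensors that bind A-type pores, did not move as 1 group. Kcnip3, which also acts as a transcriptional repressor, was at 2.15 and 2.54 CPM in midbrain shPTB libraries at 2 weeks, at 2.07 and 2.01 CPM at 4 weeks and at 9.87 and 9.24 CPM in mock, falls of 4.06-fold and 4.66-fold (adjusted p = 0.000434 and 0.000243, held throughout). In cortex it was at 7.3 and 5.03 CPM at 2 weeks, at 5.13 and 3.07 CPM at 4 weeks and at 11 and 9.79 CPM in mock, and the fall of 2.52-fold at 4 weeks was called (adjusted p = 0.0038). The gene sums compare different assigned transcripts. Kcnip3-203 held 99.8% of the reads in mock, and Kcnip3-201 held 99.5% in shPTB, both annotated as protein-coding. Kcnip2 was under 1 CPM in every mock library. It was at 3 and 4.22 CPM and at 2.01 and 2.31 CPM in cortex at 2 and 4 weeks and at 0.581 and 0.796 CPM in cortex mock. Midbrain levels were 1.58 and 2.32 CPM at 2 weeks, 1.11 and 2.54 CPM at 4 weeks and 0.163 and 0.770 CPM in mock. The 5.25-fold rise in cortex at 2 weeks (adjusted p = 0.0113) was lost without cortex shPTB library 2 of that time or mock library 1. The midbrain rises (4.22-fold and 3.96-fold, adjusted p = 0.0297 and 0.0327) were lost under scaling to total reads and without mock library 1, either shPTB library of 2 weeks or shPTB library 2 of 4 weeks, each for its own comparison (log2 fold changes from 1.23 to 3.48). Kcnip1 rose in cortex at 2 weeks, to 14.2 and 16.6 CPM against 2.38 and 4.93 CPM in mock (4.26-fold, adjusted p = 0.0023, held throughout), and was at 7.51 and 3.84 CPM at 4 weeks. In midbrain it was at 10.1 and 9.05 CPM at 2 weeks, 1.11 and 1.74 CPM at 4 weeks and 9.22 and 15.3 CPM in mock, an 8.53-fold fall at 4 weeks (adjusted p = 0.000462, held throughout).

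Of the 8 calcium- and sodium-activated potassium channel genes tested, 5, 3, 3 and 3 were called higher and 1, 2, 1 and 1 lower in the same order of comparisons. The shares called higher were 62.5%, 37.5%, 37.5% and 37.5%, beside 17.5%, 18.5%, 15.9% and 18.7% of all tested genes, and those called lower 12.5%, 25%, 12.5% and 12.5%, beside 17.6%, 20.9%, 14.7% and 20.4%. Kcnma1, the pore of large-conductance channels, was at 2.25 and 1.62 CPM in cortex at 2 weeks, at 1.28 and 1.15 CPM at 4 weeks and at 0.174 and 0.0796 CPM in mock. It rose 13.4-fold and 8.48-fold there (adjusted p = 0.00424 and 0.0135), the second lost without either shPTB library of 4 weeks or mock library 2 and under scaling to total reads. In midbrain 11 and 9 reads at 2 and 4 weeks stood against 2 in mock, ratios of 10.5 (95% counting interval 2.28 to 97) and 10.4 (2.15 to 99), and both calls were lost under DESeq2, under scaling to total reads, without either midbrain mock library and without 1 shPTB library each, library 2 at 2 weeks and library 1 at 4 weeks. Kcnu1, its relative known from sperm, was at 2.25 to 4.61 CPM in the 8 shPTB libraries and at 0.232 to 0.642 CPM in the 4 mock libraries, and its 4 rises of 5.16-fold to 8.85-fold held throughout. Kcnt1, a sodium-activated channel, rose in 3 comparisons. It was at 1.92 and 1.32 CPM in midbrain at 2 weeks, at 3.45 and 2.14 CPM at 4 weeks and at 0.0542 and 0.321 CPM in mock, 8.50-fold and 14.6-fold rises (adjusted p = 0.00722 and 0.00135), the first lost without library 1 of midbrain shPTB at 2 weeks. In cortex it was at 1.68 and 1.30 CPM at 2 weeks and at 0.116 and 0.318 CPM in mock (6.85-fold, adjusted p = 0.0144), lost without shPTB library 1 of that time or mock library 1.

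Kcnn4 (chr7:24370263-24386690, plus strand), the intermediate-conductance channel of microglia and lymphocytes, was the family member that fell in all 4 comparisons. It was at 0.562 and 1.30 CPM in cortex shPTB libraries at 2 weeks, at 0.733 and 0.961 CPM at 4 weeks and at 11 and 26.8 CPM in cortex mock. Midbrain libraries held it at 1.58 and 2.32 CPM at 2 weeks, 1.93 and 2.01 CPM at 4 weeks and 7.65 and 19.7 CPM in mock. Mock library 2 held more than 2 times the level of library 1 in both regions, and all shPTB libraries lay below all mock libraries. The falls were 19.6-fold and 22.0-fold in cortex and 6.95-fold and 6.88-fold in midbrain (adjusted p = 0.000536, 0.000415, 0.00313 and 0.00289) and held throughout. The microglia markers fell with it, as given above, and their part was not tested. Kcnn3, a small-conductance channel, was at 12 and 12.2 CPM in cortex at 2 weeks, at 7.88 and 8.07 CPM at 4 weeks and at 2.38 and 3.90 CPM in mock. In midbrain the levels were 6.45 and 6.29 CPM at 2 weeks, 7.60 and 7.10 CPM at 4 weeks and 6.08 and 8.47 CPM in mock. It was called in cortex alone, as a rise (3.88-fold and 2.56-fold, adjusted p = 0.000333 and 0.00312), the second lost under scaling to total reads, and 98.7% of its reads in shPTB and 89.8% in mock lay on a retained-intron transcript.

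HCN channels, which open on hyperpolarization and pace rhythmic firing, stayed low. Hcn2 was at 3.37 and 4.54 CPM in cortex at 2 weeks, at 4.21 and 2.88 CPM at 4 weeks and at 2.32 and 2.47 CPM in mock. Midbrain levels were 3.06 and 3.75 CPM at 2 weeks, 0.829 and 1.21 CPM at 4 weeks and 2.28 and 1.6 CPM in mock; it was not called against mock. All 31-base words in the last 500 bases of the longest Hcn3 transcript also occur in transcripts of the neighbouring gene Pklr. Reads from that end cannot be assigned by sequence alone, so the Hcn3 count is uncertain. The rest of the transcript was not compared.

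Calcium pore genes were low, with 4 tested, and fell where they were called at 4 weeks. Those falls made 75% of the genes tested in cortex and 25% in midbrain, beside 20.9% and 20.4% of all tested genes. Cacna1h, a T-type pore, was at 4.49 and 2.60 CPM in cortex at 2 weeks, at 0.733 and 0.384 CPM at 4 weeks and at 3.89 and 3.66 CPM in mock. In midbrain the levels were 4.53 and 5.63 CPM at 2 weeks, 4.70 and 4.29 CPM at 4 weeks and 2.01 and 3.15 CPM in mock. The 6.60-fold fall in cortex at 4 weeks held throughout (adjusted p = 0.00118), whereas the 1.98-fold rise in midbrain at 2 weeks (adjusted p = 0.0477) was lost in 8 of 12 single-library omissions (log2 fold changes from 0.68 to 1.33) and under DESeq2, RLE size factors and scaling to total reads. Of the words at the end of its transcript, 27.2% occur in transcripts of Tpsg1. Cacna1a, the P/Q-type pore of fast transmitter release, was at 1.5 and 0.974 CPM, 0.366 and 0.961 CPM and 6.91 and 1.35 CPM in cortex at 2 weeks, 4 weeks and mock. The corresponding midbrain levels were 1.70 and 3.86 CPM at 2 weeks, 1.11 and 0.937 CPM at 4 weeks and 7.49 and 2.89 CPM in mock. Mock library 1 was the highest in both regions. Its falls at 4 weeks (6.30-fold and 5.06-fold, adjusted p = 0.0414 and 0.0386) were each lost in 7 of 12 single-library omissions, with log2 fold changes of -1.04 and -1.50 at the weakest. Cacna1d, an L-type pore, had 3 reads in cortex at 4 weeks and 41 in mock, a ratio of 4.89 (95% counting interval 1.56 to 24.7, adjusted p = 0.0431) that lost its call under DESeq2 and in 9 of 12 omissions. Of the words at the end of its transcript, 12.3% occur in other genes. Protein-coding transcripts held 26.2% of the Cacna1d reads in shPTB and 11.1% in mock. Cacna1c, the main L-type pore, had at most 14 reads in a library and was not tested, and Cacna1e, the R-type pore, lay between 0 and 1.74 CPM and was not called.

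Of 13 calcium auxiliary genes tested, 5, 5, 5 and 4 were called higher and 1, 3, 3 and 3 lower. That is 38.5%, 38.5%, 38.5% and 30.8% higher, beside 17.5%, 18.5%, 15.9% and 18.7% of all tested genes, and 7.69%, 23.1%, 23.1% and 23.1% lower, beside 17.6%, 20.9%, 14.7% and 20.4%. Cacnb1 (chr11:98001508-98023034, minus strand), a beta subunit that carries pores to the membrane, was at 68.7 and 80.7 CPM in cortex shPTB libraries at 2 weeks, at 94.0 and 74.4 CPM at 4 weeks and at 20.5 and 23.0 CPM in cortex mock. The midbrain levels were 50.8 and 56.6 CPM at 2 weeks, 81.5 and 83.7 CPM at 4 weeks and 22.7 and 24.7 CPM in mock. It rose 3.44-fold, 3.88-fold, 2.27-fold and 3.49-fold (adjusted p = 3.91e-05, 1.68e-05, 0.000634 and 3.18e-05), all held throughout. Cacng5 (chr11:107874605-107915055, minus strand), a relative of the AMPA receptor subunit stargazin, was at 75.8 and 61.2 CPM in cortex at 2 weeks, at 97.4 and 92.4 CPM at 4 weeks and at 7.2 and 6.60 CPM in mock. Cultures from midbrain had it at 41.2 and 41.3 CPM at 2 weeks, 34.7 and 34.3 CPM at 4 weeks and 10.1 and 12.5 CPM in mock. The rises were 9.89-fold and 13.7-fold in cortex and 3.65-fold and 3.05-fold in midbrain (adjusted p = 1.04e-06, 4.12e-07, 3.14e-05 and 6.67e-05) and held throughout.

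Cacng4, which also binds AMPA receptors, rose in cortex alone as a call. It was at 19.3 and 22.7 CPM at 2 weeks, at 23.6 and 30.2 CPM at 4 weeks and at 7.03 and 8.59 CPM in cortex mock (2.70-fold and 3.45-fold, adjusted p = 0.00256 and 0.000539, held throughout). Midbrain levels were 8.15 and 7.61 CPM at 2 weeks, 3.18 and 4.69 CPM at 4 weeks and 3.47 and 5.97 CPM in mock. Oligodendrocyte lineage markers summed to 199 to 220 CPM in cortex shPTB libraries and 46.6 to 48.6 CPM in cortex mock. The midbrain sums were 46.1 to 55.2 CPM in shPTB and 36.9 to 47 CPM in mock. Mog was at 0 reads in both mock groups and in midbrain shPTB at 4 weeks. Of the 7 markers tested, 5 and 4 rose in cortex and 4 and 2 in midbrain at 2 and 4 weeks. In each comparison 1 fell. The part of these markers in the rise of Cacng4 was not tested. Cacnb4, a second beta subunit, was at 5.62 and 6.49 CPM, 6.78 and 6.92 CPM and 2.32 and 2.39 CPM in cortex at 2 weeks, 4 weeks and mock. The corresponding midbrain levels were 3.85 and 7.17 CPM at 2 weeks, 2.07 and 4.42 CPM at 4 weeks and 1.68 and 1.80 CPM in mock. Its rises in cortex (2.57-fold and 2.90-fold) and in midbrain at 2 weeks (3.16-fold) were lost under scaling to total reads. The first was also lost without either shPTB library of its group or mock library 1, and that in midbrain without shPTB library 2 of 2 weeks. Cacna2d4 rose 2.37-fold to 2.84-fold in all 4, to 2.28 to 3.66 CPM in shPTB libraries against 0.697 to 1.51 CPM in mock libraries, but each call was lost under DESeq2 and under scaling to total reads, and in 8, 2, 10 and 4 of 12 single-library omissions (log2 fold changes from 0.81 to 2.12). Of its reads, 73.1% in shPTB and 91.9% in mock lay on a transcript annotated as non-coding.

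In the other direction, Cacnb3 was at 64.6 and 56.5 CPM in cortex at 2 weeks, at 20.3 and 23.8 CPM at 4 weeks and at 62.0 and 62.1 CPM in mock, a 2.81-fold fall at 4 weeks (adjusted p = 0.000113, held throughout). In midbrain it was at 57.7 and 50.3 CPM at 2 weeks, 52.5 and 42.6 CPM at 4 weeks and 73.8 and 80.8 CPM in mock, with log2 fold changes of -0.52 ± 0.18 and -0.70 ± 0.18 SE (adjusted p = 0.0451 and 0.00961). The first lost its call in 10 of 12 single-library omissions, and the second without midbrain shPTB library 2 of 4 weeks (-0.56). Most reads of Cacnb3 lay on Cacnb3-206 in mock (56.9%) and on Cacnb3-202 in shPTB (50.6%). Cacng6, a calcium channel gamma subunit, had 1, 0, 0 and 0 reads over the shPTB groups and 92 and 38 reads over cortex and midbrain mock. It was 35.5-fold lower in cortex at 2 weeks (95% counting interval 6.22 to 1420) and at least 11-fold, 6.67-fold and 5.48-fold lower in the other comparisons, and all 4 calls held throughout. Cacna2d1, a target of gabapentin, was at 0 to 0.566 CPM in the shPTB libraries and at 1.19 to 4.12 CPM in the mock libraries and fell in all but cortex at 2 weeks, with 3, 6 and 2 reads in the groups called; those calls were lost without 5, 2 and 1 of the 12 libraries.

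Sodium pore genes were low in every group. Scn3a, a pore of developing neurons, was at 3.56 and 6.82 CPM in cortex at 2 weeks, at 1.10 and 0.961 CPM at 4 weeks and at 0.581 and 0.875 CPM in mock, a 7.17-fold rise at 2 weeks (adjusted p = 0.00373) that was lost without cortex shPTB library 2 of that time (log2 fold changes from 2.28 to 3.22). Midbrain libraries held it at 3.73 and 4.19 CPM at 2 weeks, 0.553 and 0.134 CPM at 4 weeks and 0.705 and 2.18 CPM in mock, uncalled against mock. Scn8a, the pore of the axon initial segment in mature neurons, was at 5.24 and 6.65 CPM, 4.94 and 5 CPM and 6.04 and 6.36 CPM in cortex at 2 weeks, 4 weeks and mock. The corresponding midbrain levels were 3.73 and 2.21 CPM at 2 weeks, 2.90 and 1.47 CPM at 4 weeks and 6.51 and 7.77 CPM in mock, where it fell 2.40-fold and 3.26-fold (adjusted p = 0.0142 and 0.00312; the first lost without midbrain shPTB library 2 of 2 weeks, log2 fold changes from -1.69 to -0.93). The most used Scn8a transcript differed, being Scn8a-201 in mock (93.7% of reads) and Scn8a-205 in shPTB (49.7%). Scn2a, another pore of excitatory neurons, lay between 0.792 and 1.59 CPM over all 12 libraries and was not called. Scn7a, a sodium sensor of glia that is not gated by voltage, was a midbrain gene: it was at 4.07 and 4.52 CPM, 2.35 and 2.41 CPM and 5.80 and 6.68 CPM in midbrain at 2 weeks, 4 weeks and mock, and at 0 to 0.398 CPM in the 6 cortex libraries. It fell 2.61-fold in midbrain at 4 weeks (adjusted p = 0.0133; lost without either shPTB library of that group, log2 fold changes from -1.49 to -1.28).

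Of the sodium auxiliary genes, Scn3b fell in all 4 comparisons. Scn3b (chr9:40269217-40291618, plus strand), a beta subunit of immature neurons, was at 0.562 and 1.30 CPM in cortex at 2 weeks, at 0.366 and 0.192 CPM at 4 weeks and at 9.01 and 6.36 CPM in mock. The midbrain levels were 0.905 and 2.54 CPM at 2 weeks, 0.138 and 0.536 CPM at 4 weeks and 8.63 and 9.57 CPM in mock. All shPTB libraries lay below all mock libraries. The transcript with most reads was Scn3b-203 in mock (57.8%) and Scn3b-206 in shPTB (46%). The falls were 8.03-fold in cortex at 2 weeks and 5.23-fold and 25.9-fold in midbrain (adjusted p = 0.00149, 0.00268 and 0.000162), and 3 reads against 235 in cortex at 4 weeks gave a ratio of 28 (95% counting interval 9.48 to 137); all 4 calls held throughout.

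Fewer genes were called at 4 weeks against 2 weeks of shPTB than against mock. In cortex 0 members rose and 4 fell (5.8% of those tested, against 2.77% of all genes, of which 0.548% rose and 2.22% fell). They were Cacna1h, Kcnd3, Kcna6 and Cacnb3, by 6.14-fold, 6.00-fold, 2.85-fold and 2.74-fold at 4 weeks (adjusted p = 0.0217, 0.0284, 0.0156 and 0.00241). In midbrain 2 rose and 3 fell (7.25%, against 2.66% of all genes, of which 0.958% rose and 1.7% fell). Kcnk3 rose 2.15-fold (adjusted p = 0.0267), and Scn3a, Kcnip1 and Hcn2 fell 11.3-fold, 6.65-fold and 3.31-fold (adjusted p = 0.0316, 0.017 and 0.0484). The values in every library are those given above. The spread in this test is shared with the mock libraries; fitted on the 2 groups compared alone, 14 members were called in each region. Those were 37.8% of the members tested in cortex, against 24% of all genes, and 28% in midbrain, against 32.3%. Leaving out 1 library at a time left 0 to 6 calls in cortex and 0 to 5 in midbrain, with 0 without library 1 of cortex shPTB at 4 weeks and 0 without any 1 of the 4 midbrain shPTB libraries.

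Between regions, mock cultures differed in 5 channel genes (7.25% of those tested, against 2.19% of all genes, 1.25% higher and 0.938% lower in midbrain). Scn7a was 17.8-fold, Kcnip1 3.39-fold and Kcnn3 2.33-fold higher in midbrain (adjusted p = 0.000422, 0.0427 and 0.0416). For Kcnh1, 34 reads in midbrain stood against 2 in cortex, a ratio of 14.9 (95% counting interval 3.82 to 128, adjusted p = 0.0316). Kcne1l was 3.59-fold lower in midbrain (adjusted p = 0.0044). Fitted on the mock groups alone, edgeR called 0 of all 14134 genes and 0 members, with 9 of 64 at an unadjusted p under 0.05, and DESeq2 called 4. Leaving out 1 library at a time left 2 to 5 calls. At 2 weeks of shPTB, Kcnk3 was 2.3-fold higher in midbrain and Cacng4 2.66-fold and Kcnip3 2.61-fold lower (adjusted p = 0.0201, 0.0255 and 0.0389), and Scn7a had 77 reads in midbrain and 1 in cortex. That made 4 called (5.8%, against 2.94% of all genes, 2.01% higher and 0.931% lower). At 4 weeks 9 genes were higher and 4 lower in midbrain (18.8%, against 7.99% of all genes, 5.48% higher and 2.51% lower). Kcnj8 had 74 reads in midbrain and none in cortex, at least 17.9-fold higher, and Scn7a had 35 against 1, a ratio of 25.4 (95% counting interval 4.27 to 1030). Kcnk3 was 5.87-fold and Cacna1h 7.84-fold higher, and Cacng4 6.81-fold, Kcnip1 3.97-fold and Cacng5 2.75-fold lower (adjusted p = 0.000113, 0.00344, 0.000322, 0.0352 and 0.000572). Kcnmb4, a beta subunit of large-conductance channels, was 4.97-fold, Cacnb3 2.15-fold and Kcnj12 4.18-fold higher in midbrain (adjusted p = 0.0195, 0.00378 and 0.0474), and Hcn2 3.46-fold lower (adjusted p = 0.0227). The calls of Kcnip1 and Kcnj12 were lost in 7 and 10 of 12 single-library omissions, and 7 to 13 calls were left in all.

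The response to shPTB itself differed between regions in 3 channel genes at 2 weeks (4.35% of those tested, against 0.685% of all genes) and in 6 at 4 weeks (8.7%, against 2.55%), by the interaction term of the same fit. Of all genes, 0.424% had a higher and 0.26% a lower response in midbrain at 2 weeks, and 1.9% and 0.644% at 4 weeks. Kcnk3 responded more in midbrain at both times, by 2.20 ± 0.34 and 3.55 ± 0.34 SE on the log2 scale (adjusted p = 0.0142 and 0.000361). Cacng5 responded less in midbrain, by -1.44 ± 0.26 and -2.17 ± 0.26 (adjusted p = 0.0302 and 0.00132). Kcnip1 fell in midbrain and had 0.66 ± 0.43 in cortex, a difference of -3.75 ± 0.64 (adjusted p = 0.00978). Cacna1h fell in cortex and had 0.80 ± 0.35 in midbrain, a difference of 3.53 ± 0.60 (adjusted p = 0.00982). Cacng4 rose in cortex and had -0.25 ± 0.31 in midbrain, a difference of -2.04 ± 0.42 (adjusted p = 0.0264). At 2 weeks Kcnn3 rose in cortex and had -0.19 ± 0.26 in midbrain, a difference of -2.14 ± 0.38 (adjusted p = 0.0301). The differences of Kcnk3 and Cacng5 at 4 weeks held throughout. Those at 2 weeks were lost in 4 (Kcnk3), 9 (Cacng5) and 9 (Kcnn3) of 12 single-library omissions, that of Cacng4 at 4 weeks in 9, and those of Kcnip1 and Cacna1h at 4 weeks in 2 each. The libraries for Kcnk3 were both shPTB libraries of each region, for Kcnip1 library 1 of each shPTB group, and for Cacna1h cortex library 2 and midbrain library 1.

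**Figure D4:**
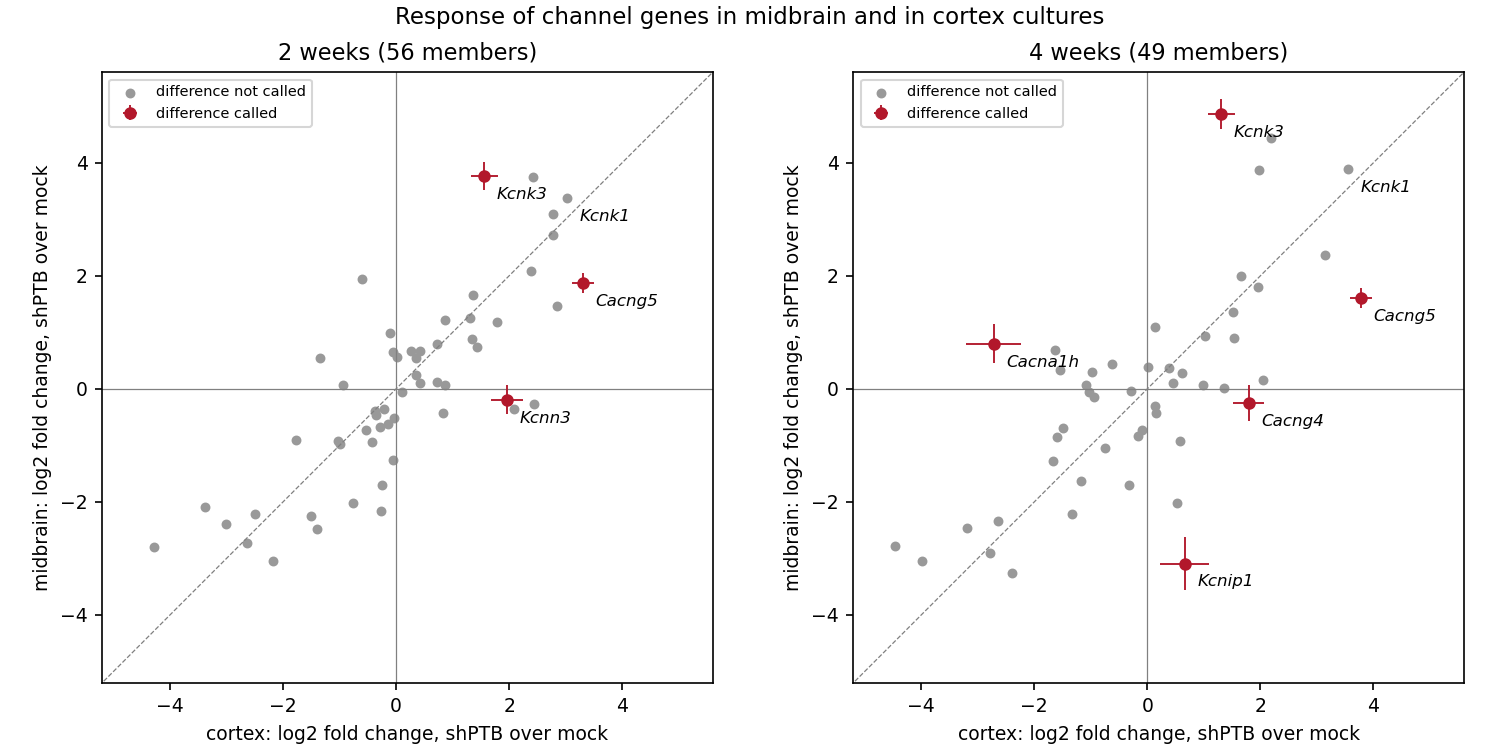
Log2 fold change of shPTB over mock in midbrain (vertical) against cortex (horizontal) at 2 weeks (56 members) and 4 weeks (49 members), for tested members with more than 3 reads in every group; red points with bars of 1 SE are the named genes whose response differed between regions, and the dashed line marks equal response. Kcnk3 and Cacna1h lie above the line and Cacng5, Cacng4, Kcnip1 and Kcnn3 below it.

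Among genes of proteins that bind, place or gate these channels, more were called higher than lower. Of the 33 on this list, 21 were tested, and 9, 7, 10 and 7 rose and 1, 1, 1 and 3 fell in cortex at 2 and 4 weeks and in midbrain at 2 and 4 weeks, beside 17.5%, 18.5%, 15.9% and 18.7% of all tested genes called higher and 17.6%, 20.9%, 14.7% and 20.4% called lower. The list was not tested as a group, and its calls were not examined in the alternative analyses. Whether more rises than falls would remain under total-read scaling was not tested. The median log2 fold change of the list was 0.78, 0.46, 0.91 and 0.40. Rimbp2, which ties calcium channels to the release machinery, was at a mean of 10.3 and 12 CPM in cortex at 2 and 4 weeks and at 0.217 CPM in mock, and of 6.37 and 10.4 CPM in midbrain at 2 and 4 weeks and 0.415 CPM in midbrain mock. Stac, an adaptor of L-type channels, had means of 8.92 and 6.31 CPM in cortex at 2 and 4 weeks and 0.601 CPM in cortex mock, and of 7.38 and 10.5 CPM in midbrain at 2 and 4 weeks and 0.328 CPM in midbrain mock. Dpp6, a partner of A-type pores, Cntnap2, which clusters Kv channels on axons, and Lgi1, a secreted protein bound to Kv complexes, also rose in all 4 comparisons, by 1.34 to 3.58 on the log2 scale. Rrad, an inhibitor of calcium channels, fell in all 4 (log2 fold changes from -3.27 to -1.87).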

How the data were processed

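RNA-seq libraries (12, in 6 groups of 2) were taken from the submitters' deposited Salmon tables, which give estimated counts and TPM per transcript. Reads were trimmed with cutadapt 2.3 and quantified with Salmon 0.14.1, per the submitters' processing notes, which also name DESeq2 and mm10; neither the annotation release nor the strand setting is given in the sources used here. Next, the deposited estimated counts, which the authors made with Salmon, were summed per gene through GENCODE M21 (140137 of 140658 transcripts matched without version numbers) and rounded. The deposited TPM values, scaled by the authors' Salmon run to transcript length and library total, served only to order genes within a group.

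Counts were tested with edgeR 4.0.16 in R 4.3.3: filterByExpr (count minimum 10, total 15), TMM, one quasi-likelihood fit over the 6 groups with 6 residual degrees of freedom, 11 contrasts, and Benjamini-Hochberg adjustment over 14607 genes with a threshold of 0.05. Fold changes are on the log2 scale with 1 SE. For a group at 0 reads the fold is a bound against 3 reads over the group, and for 1 to 3 reads a ratio with an exact 95% counting interval, which covers counting error only.

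Genes with values in every library were the 4 largest rises and falls against mock and the 2 largest elsewhere among called members averaging 5 CPM or more in the group where they were higher, the member of highest mean CPM in each family, and a list of 24; other called members may be named. Some members enter the counts but are not reported here one by one. Members and lists were chosen with earlier results of these data known. The alternatives were RLE size factors, total-read scaling, DESeq2 1.42.0, no filter, a stricter filter (5 CPM in 2 libraries), the replicate number as a block, only the groups compared, each library left out, and, chosen after seeing the data, a block within mock libraries. Tested on simulated counts modelled on the comparison of cortex shPTB at 2 weeks with mock (13364 genes, 200 changed), the fit recovered 16.3% of 2-fold, 83.3% of 4-fold and 93.5% of 8-fold changes, so a call that was missed says little about small changes. The share of genes changed was far smaller than the 35% called in the real comparison. The adjustment for multiple tests depends on that share, so these rates need not hold there.

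Same-numbered libraries did not pair across all groups, since their deviations correlated at -0.02 to 0.05 except between the 2 mock groups (0.81). Tables were made with Python 3.11.15, pandas 2.3.3 and SciPy 1.17.1, and figures with matplotlib 3.10.9.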

Additional observations from a re-analysis of the deposited data

Results flagged for a closer look

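The response to shPTB differed between midbrain and cortex in 3 channel genes at 2 weeks and 6 at 4 weeks. The test was the interaction term of the edgeR fit, given here as the midbrain minus the cortex log2 fold change. Of these results, 8 are reported one by one. At 2 weeks these were Kcnk3 at 2.20 (adjusted p = 0.0142), Cacng5 at -1.44 (0.0302) and Kcnn3 at -2.14 (0.0301). At 4 weeks they were Kcnk3 at 3.55 (0.000361), Cacng5 at -2.17 (0.00132), Kcnip1 at -3.75 (0.00978), Cacna1h at 3.53 (0.00982) and Cacng4 at -2.04 (0.0264). Kcnk3 and Cacng5 were called at both times, which share their mock libraries. With 2 libraries in a group, no single library could be tested as standing apart.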

How the results depend on the processing

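Of 172 called results, 78 kept direction and call in every alternative that gave a value, and 94 lost the call or changed sign in at least 1. Calls lost numbered 1 with RLE size factors, 27 with total-read scaling, 30 with DESeq2, 10 without a filter, 0 of 114 under the stricter filter, 26 of 158 on only the groups compared, and 15 to 46 with 1 library left out. Besides the calls lost under total-read scaling, 2 called results changed sign there. Among uncalled results, the same scaling turned the sign for Cacna1h in midbrain (-0.04) and Kcnip1 in cortex (-0.37), both at 4 weeks. With 1 library left out, log2 fold changes of uncalled genes crossed 0: the range was -0.61 to 0.18 for Cacng4 (midbrain, 4 weeks) and -0.42 to 0.06 for Kcnn3 (midbrain, 2 weeks).

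The stricter filter tested fewer genes and left 18, 18 and 22 calls in cortex at 2 weeks, midbrain at 2 weeks and midbrain at 4 weeks against mock (30, 34 and 36 in the main analysis), and 3 in midbrain at 4 against 2 weeks (5). In these comparisons, 4309, 3656, 4743 and 451 of all 10143 genes passing the stricter filter were called. For cortex at 4 against 2 weeks (4 calls), total-read scaling gave 11 and no filter 8. Beside these, 933 of all 14607 and 793 of all 26164 tested genes were called. Fitted on only the groups compared, the calls were 14 in each region for 4 against 2 weeks, 0 between mock groups (5), 17 and 22 between regions at 2 and 4 weeks (4 and 13; 35.4% and 55% of members, against 26.8% and 33.5% of all genes), and 0 for the difference in response at 2 weeks (3; edgeR, with 9 of 72 members at an unadjusted p under 0.05, while DESeq2 called 4). The cause of these shifts was not tested.

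The replicate block over all libraries gave 33, 33, 36 and 37 calls against mock, 4 and 4 between times, 5, 4 and 12 between regions and 3 and 6 for the differences in response, and took the call from Hcn2 in midbrain at 4 against 2 weeks and from Kcnj12 between regions at 4 weeks. With the replicate block in mock libraries only, the calls were 14 and 13 between times in cortex and midbrain. Between regions they were 15, 16 and 22 in mock, at 2 and at 4 weeks. For the differences in response they were 12 and 15 at 2 and 4 weeks, and no call of the main analysis was lost. In the same order, this fit called 2539, 3607, 2064, 2922, 3442, 1751 and 2277 of all 14607 tested genes. The block over all libraries called 5564, 6090, 5007, 6167, 437, 459, 362, 496, 1246, 119 and 428 of them. Each of the 2 fits tested 69 members.

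With 1 library left out, calls ranged from 16 to 30, 21 to 33, 16 to 36 and 26 to 37 against mock (cortex at 2 and 4 weeks, midbrain at 2 and 4 weeks), 0 to 6 and 0 to 5 between times, 2 to 5, 1 to 6 and 7 to 13 between regions (mock, 2 and 4 weeks), and 0 to 4 and 3 to 7 for the differences in response at 2 and 4 weeks. Where that left 1 library in a group, it was assumed to vary like the others. The number called over all tested genes changed in these fits as well. The ranges therefore show calls lost or gained, and not an excess or a lack among members. Detected genes numbered 88 with a minimum of 5 reads, 56 with 20 reads, and 70 to 74 with 1 library left out. Depth limits genes at a few reads, for which only large falls or rises could be seen.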
